A study of Mus musculus with 12 samples.

Results

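The Snrpn cluster is a group of neighbouring imprinted genes on mouse chromosome 7, and its genes were followed here in 12 end-stage lymphomas with and without Smchd1. 8 genes were sought by name, without regard to case: Ndn, Mkrn3, Magel2, Peg12, Snrpn, Snurf, Ube3a and Atp10a. The array spells the names in capitals (NDN, MKRN3, MAGEL2, PEG12, SNURF, UBE3A, ATP10A). 7 of them were found, with 15 probes among the 45281 probes and 30774 target names of the array. No probe carried the target name Snrpn, so that gene was not analysed here under its own name. 4 of the 7 genes (6 of the 15 probes) were detected on at least 3 of the 12 arrays and entered the tests, which covered 12822 genes. The other 3 genes are described by their levels alone.

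Imprinted genes are expressed from the copy inherited from 1 parent and are silent on the other copy. In this cluster Snrpn, Snurf, Ndn, Magel2, Mkrn3 and Peg12 are expressed from the paternal copy, and the maternal copies are silenced under the control of an imprinting centre at the Snrpn promoter. Ube3a is expressed mainly from the maternal copy in neurons and from both copies in most other cells. Loss of paternal expression from the matching human region is known for Prader-Willi syndrome, and loss of maternal UBE3A for Angelman syndrome. Smchd1 encodes a noncanonical SMC protein that acts in gene silencing on the inactive X chromosome and at some imprinted genes, and members of this cluster are among its reported targets.

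All 12 lymphomas came from C57BL/6 mice with the Eµ-Myc transgene, in which the immunoglobulin heavy chain enhancer drives Myc in B-lineage cells. 6 were Smchd1 wildtype, and 6 were Smchd1 null, meaning homozygous for a gene trap allele of Smchd1. The tumour cells were purified by cell sorting, and the labels do not name the sorting markers; each sample was hybridised to 1 Illumina array. The labels give neither age nor sex, and they do not say that each replicate came from a separate mouse, so p-values measure the spread between these samples. In such bulk samples, fewer cells expressing a gene and less RNA per cell cannot be told apart.

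**Figure D1:**
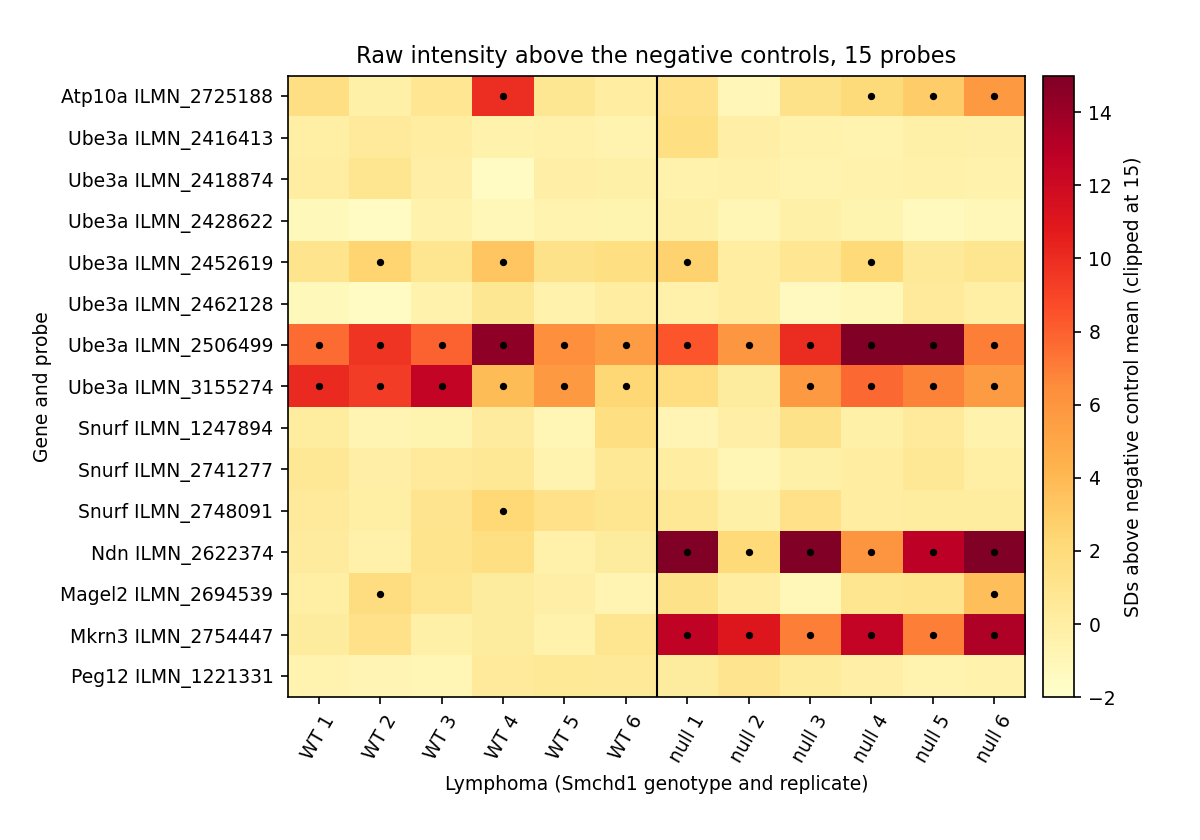
Raw mean bead intensity of the 15 probes (rows, in chromosome order of the genes) in the 12 lymphomas (columns), as the number of SDs above the mean of the negative control probes of the same array; black dots mark probes detected at p under 0.05. Mkrn3 and Ndn carry a dot in all 6 null and 0 wildtype lymphomas, while the 3 Snurf probes and Peg12 carry 1 dot between them.

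Each array detected between 14905 and 17724 probes. Wildtype replicates 1, 2 and 3 shared BeadChip 1 with null replicates 4, 5 and 6, and the other 6 arrays lay on BeadChip 2, which was dimmer (mean raw intensity 254.65 to 468.83 against 523.88 to 599.15). Smchd1 had normalized log2 intensities of 9.57 to 10.50 in wildtype and 5.15 to 6.95 in null lymphomas. Of 14 B-lineage marker genes on the array, all 14 were detected on at least 3 arrays and 10 on every array, and their summed log2 level ran from 123.05 to 160.72 in wildtype and from 123.21 to 151.2 in null lymphomas. 13 of the 14 were lower in null lymphomas, with a median log2 change of -0.27, and 0 passed. Over all 12822 genes tested, 6423 were lower and the median was -0.00046. T cell sums ran from 60.3 to 79.5 in wildtype and from 57.0 to 94.6 in null lymphomas, highest in null replicate 1. Erythroid sums ran from 39.7 to 52.2 in wildtype and from 39.7 to 58.7 in null lymphomas. Macrophage sums ran from 44.8 to 54.5 in wildtype and from 43.3 to 61.4 in null lymphomas. The NK cell list reached higher in wildtype, with sums from 35.3 to 42.0 against 35.5 to 36.4 in null lymphomas. Of the Snrpn cluster and all other genes together, 3 of 12822 passed the test between the groups (0.0234%), 1 of them upwards (0.00780%). With each of 18921 probes tested alone, 3 passed (0.0159%).

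The region upstream of the paternally expressed genes can be read from RefSeq (GRCm38.p6), where Ndn and Magel2 lie on the plus strand and Mkrn3 and Peg12 on the minus strand, in the chromosome order Ndn, Magel2, Mkrn3, Peg12. The 250 bases before the annotated start of each of these genes are shown because Ndn and Mkrn3 were detected in every null lymphoma, while Magel2 between them and Peg12 beside them were not. The windows are chr7:62348027-62348276 for Ndn, chr7:62376729-62376978 for Magel2, chr7:62420154-62420403 for Mkrn3 and chr7:62464511-62464760 for Peg12. Capitals mark CG dinucleotides, the sites of DNA methylation in mammals.
Ndn: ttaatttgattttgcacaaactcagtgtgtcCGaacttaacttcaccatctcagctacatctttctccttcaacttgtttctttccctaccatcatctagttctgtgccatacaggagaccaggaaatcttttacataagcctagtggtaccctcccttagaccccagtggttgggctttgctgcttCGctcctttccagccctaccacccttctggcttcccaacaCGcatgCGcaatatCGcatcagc
Magel2: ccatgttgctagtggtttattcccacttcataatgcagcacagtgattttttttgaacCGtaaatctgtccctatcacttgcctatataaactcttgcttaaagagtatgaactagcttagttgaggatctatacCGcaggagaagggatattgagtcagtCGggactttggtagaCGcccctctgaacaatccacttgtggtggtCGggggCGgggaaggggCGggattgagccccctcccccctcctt
Mkrn3: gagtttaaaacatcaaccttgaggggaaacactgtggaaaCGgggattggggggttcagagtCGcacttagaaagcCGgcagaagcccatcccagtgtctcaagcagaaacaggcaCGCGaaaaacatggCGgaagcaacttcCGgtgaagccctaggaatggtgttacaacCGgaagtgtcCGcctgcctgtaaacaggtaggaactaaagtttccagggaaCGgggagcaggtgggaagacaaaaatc
Peg12: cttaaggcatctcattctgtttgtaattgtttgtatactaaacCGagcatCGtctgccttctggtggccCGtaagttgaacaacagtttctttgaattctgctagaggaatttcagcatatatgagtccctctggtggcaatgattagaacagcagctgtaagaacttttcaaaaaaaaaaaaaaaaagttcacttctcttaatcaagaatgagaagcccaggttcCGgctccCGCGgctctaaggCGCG
The windows held 5 CG in Ndn, 7 in Magel2, 10 in Mkrn3 and 8 in Peg12, where the median over 32817 such RefSeq windows was 6. Neither Ndn nor Mkrn3 stood at an extreme: 44.4% of all windows had fewer CG than that of Ndn and 62.2% fewer than that of Mkrn3. The E-box CACGTG, the motif bound by Myc and Max, was found on either strand in 6.02% of all windows and in none of these 4. The hexamer TGCCGC, bound by the imprint-protecting factor Zfp57 when methylated, was found in 8.68% of all windows and in none of these 4, on either strand. The letters CGCATGCG, the core of the NRF1 motif and the same on both strands, occurred once in the Ndn window and not in the other 3, against 1.54% of all windows. It also occurred in 2 of the 3 Snrpn windows of RefSeq, and this string was searched after the sequences had been read. A longer form of the string, with a G added before it and a C after it, was searched as well. That longer form was found in 0.777% of all windows, and in none of these 4 or of the 3 Snrpn windows. These counts describe letters only, and no binding or methylation was measured here.

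Mkrn3, a makorin RING-finger ubiquitin ligase that restrains the onset of puberty, was below detection in every wildtype lymphoma and detected in every null lymphoma, and it rose in null lymphomas. Its probe (ILMN_2754447) had raw intensities between 89.7 and 109.7 in wildtype (median 99.55) and between 142.9 and 228.6 in null lymphomas (median 163.15). The groups did not overlap, even before any background correction. Against the negative control probes of its own array, every wildtype value lay between -0.412 and 1.33 SDs of their mean and every null value between 6.97 and 13.3 SDs above it. On the normalized log2 scale the levels ran from 4.42 over a median of 4.53 to 4.80 in wildtype and from 5.99 over 6.71 to 7.47 in null lymphomas. Null lymphomas exceeded wildtype by 2.20 ± 0.24 on the log2 scale (SE), and the adjusted p over 12822 genes was 0.00211 with limma. As the gene was below detection on every wildtype array, the fold between the means is a bound. The null mean was at least 3.41-fold above a wildtype mean set as follows. Each wildtype array gave the lowest level detected on that array, or the gene's own level where that was higher. The bound allows for undetected levels only and not for the spread between lymphomas. Mkrn3 was the third gene of all by p, behind Smchd1 and C030034I22Rik, both of which fell.

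Ndn encodes necdin, a MAGE family protein known as a growth suppressor of neurons and other quiescent cells. Its probe (ILMN_2622374) had raw intensities between 89.8 and 113.6 in wildtype (median 99.1) and between 97.8 and 584 in null lymphomas (median 244.45). Null replicate 2, at 97.8, was the exception, lying within the wildtype range before background correction, while the other 5 null lymphomas lay above it. After normalization the levels ran from 4.41 over 4.52 to 5.09 in wildtype and from 5.46 over 7.28 to 8.63 in null lymphomas, and the groups did not overlap, by a margin of 0.37. The log2 change was 2.55 ± 0.53 (SE), with a 95% interval from 1.40 to 3.70, and it did not pass (limma, adjusted p = 0.744). Among all genes it ranked sixth by p. By the same bound on the means, the null mean was at least 4.51-fold higher. This bound allows for undetected wildtype levels only, and the 95% interval, which holds the spread between lymphomas, reaches lower.

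**Figure D2:**
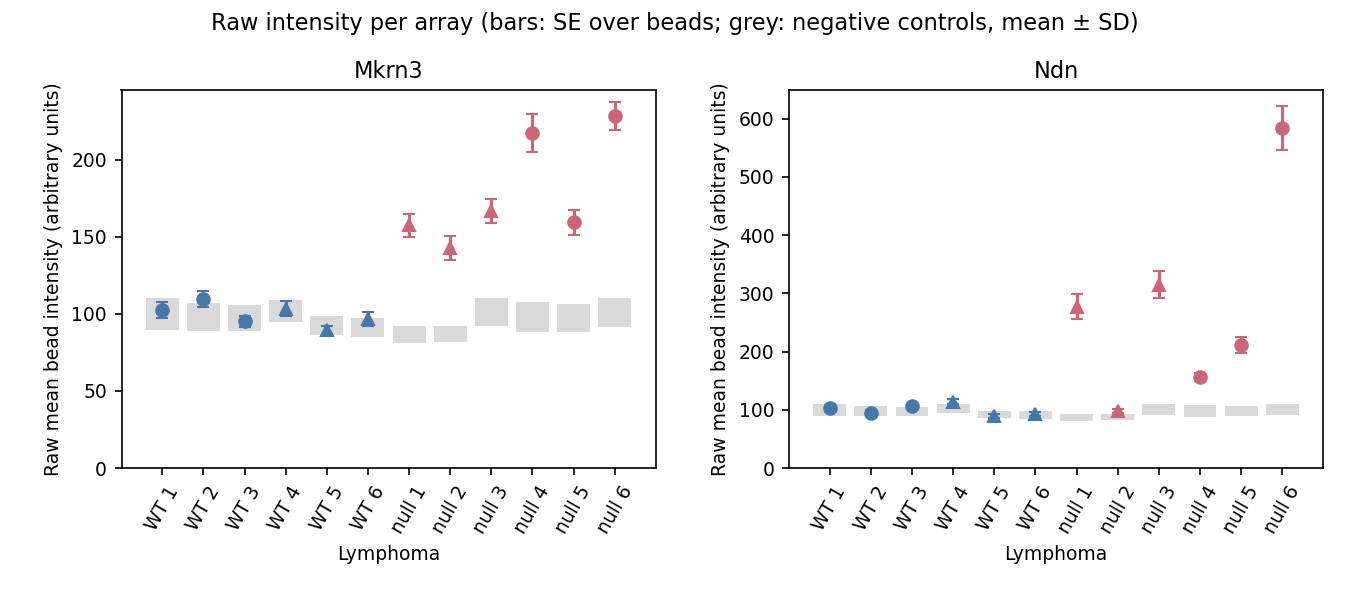
Raw mean bead intensity (arbitrary units) of Mkrn3 and Ndn on each array, in blue for wildtype and red for null lymphomas, with circles for BeadChip 1, triangles for BeadChip 2, bars for the SE over the beads of the probe and grey boxes for the mean ± SD of the negative controls of the array. All 6 null values of Mkrn3 lie clear of the grey boxes, and those of Ndn spread from 97.8 to 584.

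The model of limma shares 1 spread between both groups, whereas the null lymphomas varied much more than the wildtype ones for Ndn (SD 1.41 against 0.26, n = 6 each) and for Mkrn3 (0.55 against 0.15). Groups that did not overlap with null higher were seen for 5 of 12822 genes (0.0390%), and Mkrn3 and Ndn were 2 of these 5. In either direction 11 genes did not overlap (0.0858%). On raw intensities the only such gene was Mkrn3 (0.00780% of genes). Both genes were chosen with this pattern known and entered the tests through null arrays alone, so these shares describe the arrays and nothing is read from them.

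Detection gave a second reading of the same arrays. Of all 45281 probes, 2 were detected on every null and no wildtype array (0.00442%), and these were the probes of Mkrn3 and Ndn. The reverse pattern, every wildtype and no null array, was met by 0 probes (0.00%). At the stricter detection p of 0.01, Ndn was detected on 5 null arrays, null replicate 2 being lost, and Mkrn3 was then the only probe with the first pattern, while 1 probe had the reverse pattern. The Mkrn3 and Ndn detection was among the results known when these genes were chosen, so the shares describe the array and support nothing further.

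On each BeadChip alone null lymphomas were higher for both genes. The normalized groups did not overlap, so no part of these arrays could give the other direction, and nothing further is read from it. The log2 change of Mkrn3 was 1.89 on BeadChip 1 and 2.50 on BeadChip 2, and that of Ndn was 2.46 and 2.64. With 3 arrays against 3, neither passed on either BeadChip (limma, adjusted p = 0.999 and 0.514 for Mkrn3), nor did Smchd1 itself on BeadChip 2 (adjusted p = 0.211). Left uncorrected for background, Mkrn3 did not pass either, at a log2 change of 0.91 (limma, adjusted p = 0.0546).

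Within the null lymphomas Mkrn3 and Ndn had different orders. Ndn stood at 8.63 in null replicates 1 and 6, at 7.87 in null replicate 3, at 6.69 in null replicate 5, at 5.72 in null replicate 4 and at 5.46 in null replicate 2, so that the highest was 9.02-fold above the lowest. Mkrn3 stood at 7.47 in null replicate 2, at 7.24 in null replicate 1, at 6.92 in null replicate 6, at 6.51 in null replicate 4, at 6.44 in null replicate 3 and at 5.99 in null replicate 5, a range of 2.79-fold. Null replicate 2 thus held the highest level of Mkrn3 and the lowest of Ndn. The order of Mkrn3 among the null lymphomas depended on the processing, since its highest raw intensity was that of null replicate 6 (228.6) and its lowest that of null replicate 2 (142.9).

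**Figure D3:**
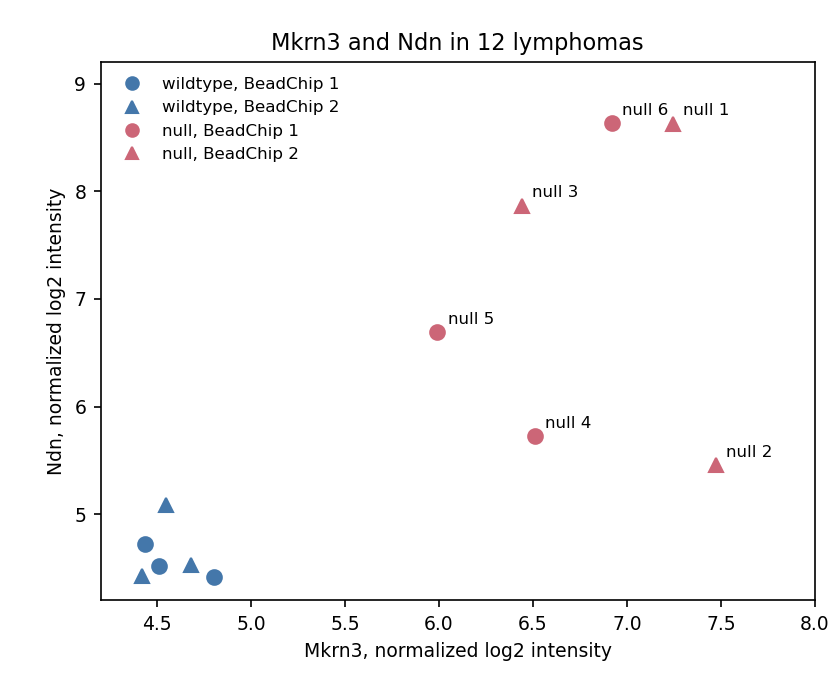
Normalized log2 intensity of Ndn against Mkrn3 in the 12 lymphomas, in blue for wildtype and red for null, with circles for BeadChip 1 and triangles for BeadChip 2. The wildtype lymphomas sit together in the lower left corner, and the 6 null lymphomas are spread, with Pearson's r = 0.059 between the genes.

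3 members were detected on every null array, namely Mkrn3, Ndn and Ube3a, which gives 3 pairs. Over the 6 null lymphomas the correlation of Mkrn3 with Ndn was Pearson's r = 0.059 (exact permutation p = 0.911, 0.911 after Benjamini-Hochberg adjustment over the 3 pairs) and Spearman's rho = -0.086 (exact permutation p = 0.919, adjusted 0.919). Without the 2 samples farthest from the median of Mkrn3, null replicates 2 and 5, r was 0.67 over 4 samples. Mkrn3 and Ube3a had r = -0.48 (exact permutation p = 0.356, adjusted 0.669) and rho = -0.83 (exact permutation p = 0.0583, adjusted 0.175), and r = -0.38 without the same 2 samples. Ndn and Ube3a had r = -0.43 (exact permutation p = 0.446, adjusted 0.669) and rho = -0.26 (exact permutation p = 0.658, adjusted 0.919), and r = -0.75 without null replicates 2 and 4. No pair passed. Each BeadChip held 3 null lymphomas, too few for a correlation of its own, and with the BeadChip means removed r was -0.010 for Mkrn3 with Ndn, -0.76 for Mkrn3 with Ube3a and -0.47 for Ndn with Ube3a. With median scaling r was 0.30 for Mkrn3 with Ndn, -0.068 for Mkrn3 with Ube3a and 0.065 for Ndn with Ube3a. On the 2 BeadChips the null lymphomas had mean levels of 6.47 ± 0.47 and 7.05 ± 0.54 for Mkrn3 and of 7.01 ± 1.48 and 7.32 ± 1.66 for Ndn (SD, n = 3 each).

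Among all tested genes, Mkrn3 and Ndn did not rank near one another within the null lymphomas on the normalized values used here. These ranks rest on a single normalization of 6 samples, and with median scaling r of the pair was 0.30. Ordered by Pearson's r with Mkrn3 over the 6 null lymphomas, Ndn was number 5610 of 12821 genes, and ordered by r with Ndn, Mkrn3 was number 6051. Ube3a was number 10304 for Mkrn3 and 10637 for Ndn. Atp10a was number 8859 for Mkrn3, 1270 for Ndn (r = 0.59) and 12084 for Ube3a (r = -0.62) over the same lymphomas. Genes most like Mkrn3 there were Ell, an elongation factor of RNA polymerase II (r = 0.99), and Rufy2 (r = 0.98), beside a target with no current gene symbol. Those most like Ndn were the potassium channel gene Kcnk5 (r = 0.99), Zpbp (r = 0.99) and the transcription factor gene Usf2 (r = 0.99), and those most like Ube3a were Atp6v1h, a subunit of the vacuolar proton pump (r = 0.98), Mien1 (r = 0.98) and 6430524C05RIK (r = 0.95). Over all 12 lymphomas, where the difference between the groups enters, Ndn was number 7 in likeness to Mkrn3 (r = 0.77) and Mkrn3 number 13 in likeness to Ndn. The nearest to Mkrn3 were then Tfcp2 (r = 0.88), E430024F02RIK (r = 0.85) and Pkp4 (r = 0.80), and the nearest to Ndn were Kcnq3 (r = 0.88), Fam229b (r = 0.87) and Egf (r = 0.83). For Ube3a they were Atp6v1d (r = 0.92), Echdc2 (r = 0.90) and Srfbp1 (r = 0.89). The highest r among 12821 genes over 6 or 12 arrays is a description only.

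Magel2 lies between Ndn and Mkrn3 and encodes a MAGE protein that works with the ubiquitin ligase Trim27 in endosomal protein recycling. Its probe was detected on 1 wildtype and 1 null array and was not tested. Raw intensities ran from 86.5 to 113.6 in wildtype and from 87.4 to 136 in null lymphomas, and the groups overlapped. The highest value, 136, belonged to null replicate 6, the lymphoma with the highest raw intensity of Ndn and Mkrn3, where it lay 3.65 SDs above the negative controls. In null replicate 1, which shared the highest normalized Ndn level, Magel2 was not detected, at 93.6. The probe rested on 18 to 33 beads per array, fewer than the 31 to 55 of Mkrn3.

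Peg12, a Frat family gene whose protein binds the kinase GSK3, was detected on 0 arrays. Its mean normalized log2 level was 4.49 ± 0.13 among wildtype lymphomas and 4.52 ± 0.16 among null ones (SD over 6). The 3 probes named for Snurf, which is read from the same transcript as the spliceosomal protein gene Snrpn, were detected on 1, 0 and 0 arrays. The single detection was in wildtype replicate 4, with a raw intensity of 118 for ILMN_2748091. Mean log2 levels of the 3 Snurf probes lay between 4.51 and 4.79 in wildtype and between 4.47 and 4.58 in null lymphomas, at background in both groups. Over the whole array 43.5% of probes were detected on no array, so a probe without signal says little about its gene.

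**Figure D4:**
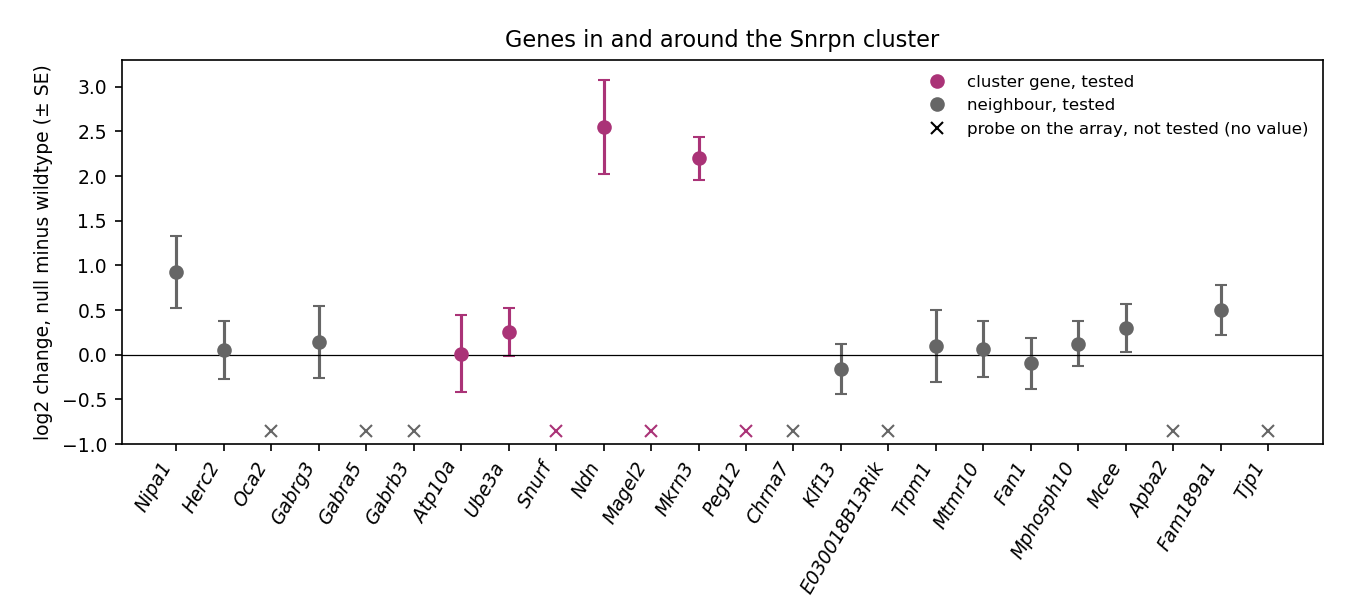
Log2 change between null and wildtype lymphomas (limma, ± SE) for genes with a probe on the array, in the order in which RefSeq places them on chromosome 7 from Nipa1 to Tjp1; crosses at the foot mark genes that were not tested and have no value. Ndn at 2.55 and Mkrn3 at 2.20 stand above their neighbours, whose values run from -0.16 to 0.92.

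Ube3a, a HECT-type ubiquitin ligase, was the one gene of the cluster with signal in every lymphoma. Its brightest probe, ILMN_2506499, was detected on all 12 arrays, with log2 levels from 5.76 over 6.35 to 7.55 in wildtype and from 6.17 over 6.73 to 6.998 in null lymphomas. The null values lay inside the wildtype range. The log2 change was 0.25 ± 0.27 (SE, limma), with a 95% interval from -0.33 to 0.84, and it did not pass.

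The other tested Ube3a probes had lower null means. ILMN_3155274 was detected on 6 wildtype and 4 null arrays, with a mean of 6.14 ± 0.53 against 5.62 ± 0.67 (SD, n = 6 each) and a log2 change of -0.52 (95% interval -1.23 to 0.19). Its lowest values, 4.54 and 5.01, were those of null replicates 2 and 1, the dimmest arrays, where it was not detected. ILMN_2452619 was detected on 2 arrays of each group and had a log2 change of -0.24 (95% interval -0.74 to 0.26). Neither passed, and the remaining 4 Ube3a probes were detected on 0 arrays. Where these probes lie in the gene was not determined here.

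**Figure D5:**
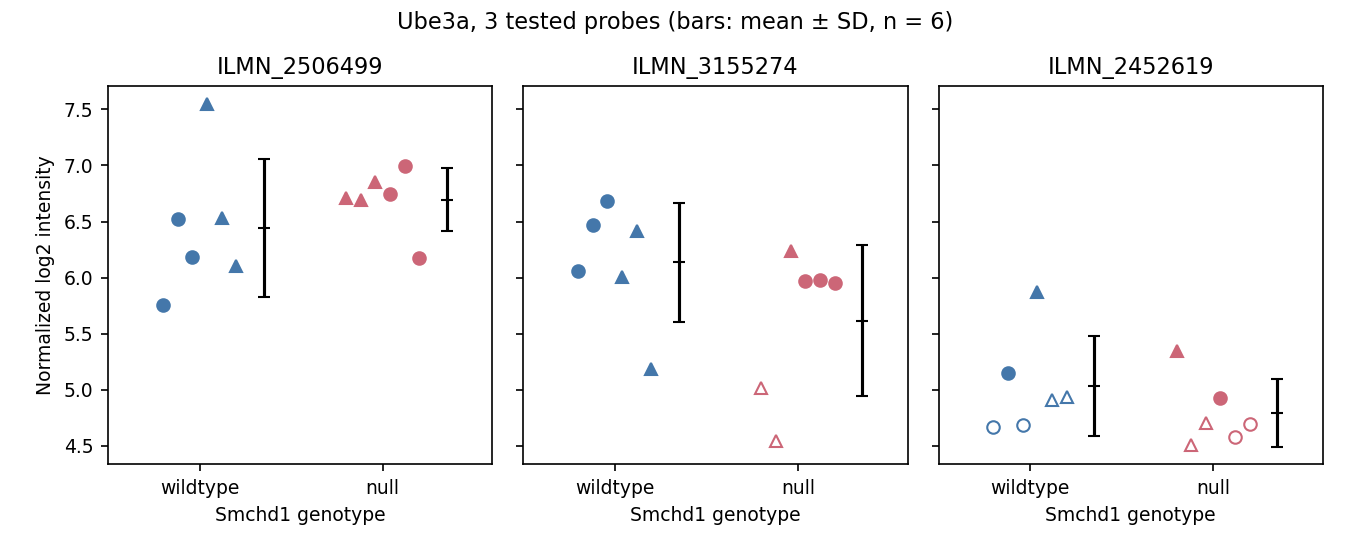
Normalized log2 intensity of the 3 tested Ube3a probes in wildtype (blue) and null (red) lymphomas, with circles for BeadChip 1, triangles for BeadChip 2, open symbols for arrays without detection and black bars for the mean ± SD of 6 lymphomas. The groups overlap for each probe, and the mean of the null group is higher for ILMN_2506499 and lower for the other 2 tested probes.

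Atp10a, which encodes a phospholipid flippase, lies next to Ube3a on the outer edge of the cluster. It was detected on 1 wildtype and 3 null arrays. Levels ran from 4.43 over 4.67 to 7.10 in wildtype and from 4.35 over 4.89 to 5.98 in null lymphomas, and the groups overlapped. The highest value was that of wildtype replicate 4, with a raw intensity of 173.4, and null replicates 4, 5 and 6, all on BeadChip 1, were the other detected lymphomas. The log2 change was 0.011 ± 0.43 (SE, limma), with a 95% interval from -0.93 to 0.95, and its sign turned under several settings.

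Of the 4 tested members, 1 passed, upwards, where 1 of all 12822 genes passed upwards (0.00780%). All 4 log2 changes were above 0, as were 6399 of the 12822, with a median of 1.23 against -0.00046 over all genes. That of Atp10a was 0.011 ± 0.43 (SE). That of Ube3a was read from its brightest probe, while its further tested probes stood at -0.52 and -0.24. Ndn and Mkrn3 entered the tests through null arrays alone, so neither the count nor the median is evidence of a shift of the cluster.

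Genes that flank the cluster and are not imprinted did not pass. Of 18 such genes on the array 11 were tested and 0 passed in either direction, where 0.0234% of all genes passed. Of the 11, 7 were higher and 4 lower, and the median log2 change was 0.062. 1 of the 11 had p below 0.05 before adjustment, against 1.46% of all genes. That gene was Nipa1, a magnesium transporter gene, detected on 2 wildtype and 5 null arrays, with levels of 5.06 ± 0.51 and 5.98 ± 0.94 (SD, n = 6 each). Its log2 change of 0.92 ± 0.40 (SE) had an adjusted p of 1 with limma. The next by p on this list was Mcee, an enzyme of propionate breakdown, with a log2 change of 0.30 ± 0.27 (SE). Fam189a1, which lies between Apba2 and Tjp1 and was not on the list, was noted after its values were seen. It was detected on 0 wildtype and 3 null arrays and had a log2 change of 0.50 ± 0.28 (SE), which did not pass.

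Of the relatives and partners of the encoded proteins, 0 passed on any of 3 lists, where 0.0234% of all genes passed. With limma 0 had p below 0.05 before adjustment, against 1.46% of all genes. For lists this short, such counts say little. Of 12 tested MAGE and makorin relatives and Magel2 partners, 6 were higher and 6 lower (median 0.0054). The smallest p-values were those of the MAGE gene Maged2 (log2 change 0.43) and of Mkrn1, the makorin from which Mkrn3 is thought to derive (-0.28). Of 8 tested genes for spliceosomal proteins, the partners and relatives of Snrpn, 6 were higher and 2 lower (median 0.064), with 0.20 for Snrnp70 and -0.20 for Snrpd3. Of 12 tested relatives and partners of Ube3a and Atp10a, 6 were higher and 6 lower (median 0.0023), with 0.13 for the proteasomal ubiquitin receptor gene Psmd4. A gene of this last list was also counted among the flanking genes.

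Because Ndn is strongly expressed in neurons and in some stromal and stem cells, markers of these cells were read on the same arrays. Of 11 neural marker genes 2 were detected on at least 3 arrays, 1 of them on every array. 5 were detected on 0 arrays, among them Snap25, Nefl and Gap43. The summed log2 level of the 11 ran from 49.3 to 55.5 in wildtype and from 50.9 to 54.2 in null lymphomas. Of 13 stromal and endothelial genes 4 were detected on at least 3 arrays, 1 of them on every array. Another 4 were detected on 0 arrays, namely Col1a1, Dcn, Lum and Pdgfrb. The sums ran from 63.3 to 66.5 in wildtype and from 63.2 to 69.0 in null lymphomas. Null replicate 6, which had the highest raw Ndn intensity, had the lowest stromal sum, whereas null replicate 1, nearly equal to it in normalized Ndn level, had a stromal sum of 67.8, above every wildtype lymphoma. Of 8 stem and progenitor genes 4 were detected on at least 3 arrays, 1 of them on every array. 2 were detected on 0 arrays, among them Cd34. The summed levels of the 8 genes ran from 37.3 to 39.7 in wildtype and from 37.6 to 42.0 in null lymphomas. Here null replicate 6 had the highest sum, 42.0, and null replicate 1 stood at 39.5. Over the whole array 43.5% of probes were detected on no array, so the markers without signal are not read as absence of these cells. Any part of neural, stromal, stem or progenitor cells in the Ndn levels was not tested.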

How the data were processed

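Values came from 12 Illumina MouseWG-6 version 2 arrays. The deposited intensity of a probe is its mean over beads, not normalized, exported from GenomeStudio 1.6.0 per the file headers, with a deposited signal SD over beads and a number of beads per probe. The deposited detection fraction is 1 minus the deposited detection p-value against the negative controls of the array. The deposited log2 table of the authors was made with neqc, per the deposited readme, and the submitters' processing notes name R 2.15.1 and limma 3.12.1. Running neqc again on the intensities (936 negative controls, offset 16, quantile normalization) gave the authors' deposited log2 values, with differences under 1e-06.

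Probes with detection p under 0.05 on at least 3 of 12 arrays were kept (18921), with the brightest probe per gene (12822 genes). Null minus wildtype was tested with limma 3.58.1 in R 4.3.3, with Benjamini-Hochberg adjustment over all genes and a threshold of 0.05. Member probes were also fitted among all 18921 probes, and intervals and changes of the further Ube3a probes are from that fit. Target names were matched to the RefSeq gene table of GRCm38.p6 (15991 by symbol, 5826 by synonym, 887 by gene ID, 8070 unmatched). The number of arrays limits the precision. The members and lists were chosen with earlier results of these data known. Named genes are all members, Smchd1, up to 4 passing or else the 2 smallest p-values per list, and the 3 genes most like each member detected on all null arrays. C030034I22Rik was named after its value was seen. Some genes that this rule names are not reported here.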

Additional observations from a re-analysis of the deposited data

Results flagged for a closer look

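In groups of 6 lymphomas, a sample was marked where its gap to the nearest other sample, relative to the range of the group, was above Dixon's 95% critical value. Over 15 probes and both groups, 4 of 30 were marked, where chance marks about 1 in 20. Atp10a stood at a log2 intensity of 7.10 in wildtype replicate 4, against 4.77 for the next wildtype lymphoma. The Ube3a probe ILMN_2506499 stood at 6.17 in null replicate 6, below 6.69 for the next. The remaining marks were on probes not detected on the array concerned, namely Snurf probe ILMN_1247894 at 4.92 in wildtype replicate 6 and Ube3a probe ILMN_2416413 at 4.98 in null replicate 1.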

How the results depend on the processing

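The number of genes past the threshold was 3, and over 27 alternatives it was 5 without wildtype replicate 2, 1 on BeadChip 1 alone and 0 on BeadChip 2 alone, which leaves 3 against 3; leaving out single replicates gave 3 to 5. The log2 change of Mkrn3 lost its call in 3 alternatives, at 0.91 without background correction, 1.89 on BeadChip 1 alone and 2.50 on BeadChip 2 alone; it ran from 2.06 to 2.35 with single replicates left out, each time past the threshold. The log2 change of Ndn was above 0 and not past the threshold in all 27 alternatives (1.24 to 2.89, adjusted p 0.138 to 1, the lowest without null replicate 2). Among the 27, the authors' table repeats the main values, and several settings change only the filter or the model and leave the change at 2.55. As the normalized groups did not overlap, leaving out arrays could not turn the sign for Ndn or Mkrn3. Without null replicates 1 and 2 together, a setting chosen after seeing the data, Mkrn3 was at 1.90 (adjusted p = 0.00834) and Ndn at 2.61 (adjusted p = 0.384). With a replicate block Mkrn3 was at 2.20 (adjusted p = 0.0121) and Ndn at 2.55 (adjusted p = 0.671); same-numbered samples correlated at -0.26 to 0.68, so the numbers were not taken to pair samples. Detection at p under 0.01 left 1 probe on every null and no wildtype array, and gave 1 probe with the reverse pattern. Atp10a changed sign, at -0.029 without background correction, -0.045 with an offset of 50, -0.74 on BeadChip 2 alone and -0.18 to 0.43 with single replicates left out. Snrnp70 turned to -0.019 on BeadChip 2 alone, and Snrpd3 to 0.011 on BeadChip 1 alone and 0.075 without null replicates 1 and 2 together. With BeadChip means removed r of Mkrn3 with Ndn was -0.010, and with median scaling r of Ndn with Ube3a was 0.065. The cause was not tested. Levels near the negative controls limit every member, Ube3a included, whose log2 change was 0.11 without background correction.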
